A study of Arabidopsis thaliana with 6 samples.

Results

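ECT2 is an Arabidopsis protein with a YTH domain, the fold that binds N6-methyladenosine (m6A) in RNA. The sites described here are the places in coding sequence (CDS) where RNA was recovered with ECT2 from seedlings. They were chosen by their deposited location label: distinct sites (chromosome, start, end and strand) on the 5 nuclear chromosomes whose first listed transcript carries the label CDS in an FA-CLIP library. This gave 21286 sites, 12625 in FA-CLIP 1 and 8701 in FA-CLIP 2 with 40 identical in both, of 80503 nuclear FA-CLIP sites and of 85299 nuclear sites in the series. The choice used the label alone and no measured value. The mock libraries held 1727 sites with the same label, 768 in mock 1 and 969 in mock 2.

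In formaldehyde crosslinking and immunoprecipitation (FA-CLIP), proteins are fixed to RNA with formaldehyde, the RNA is cut with RNase T1, which cuts after G, and the protein is precipitated with the RNA still bound. All 6 libraries came from 14-day-old Col-0 seedlings, 2 per group. FA-CLIP libraries held RNA precipitated with ANTI-FLAG M2 magnetic beads from plants labelled transgenic ECT2:ETC2-Flag/ect2, a tagged ECT2 transgene, under the ECT2 promoter as its name gives it, in the ect2 T-DNA mutant (SALK_002225). Mock libraries held RNA that the same beads held from wild-type plants, and input libraries held RNA of the transgenic genotype without precipitation. The mock thus differs from FA-CLIP by the transgene and the ect2 mutation together. The labels give neither the number of transgenic lines nor whether the 2 libraries of a group came from separate plantings, so the spread between them may be technical.

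In plants as in animals, m6A is placed on mRNA by a writer complex, mostly towards the 3′ end of the transcript and around the stop codon, and YTH proteins such as ECT2 bind it and act on the fate of the mRNA. The writer acts on a consensus called DRACH. The coding sequence is the stretch between start and stop codon that ribosomes read, so a protein bound there lies in the path of translation.

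The measured quantity is the number of conversion events per site, a whole number of at least 2 that is not scaled to library size. Nuclear sites carried 836826 and 767365 events in FA-CLIP 1 and 2, against 402932 and 530824 in mock 1 and 2. CDS-labelled sites took 72081 and 40266 of these events in FA-CLIP 1 and 2, against 12013 and 16537 in mock 1 and 2. In the input, leaf genes were abundant (RBCS1A, the Rubisco small subunit, had 5371 and 5560 FPKM), and the seed storage genes CRA1 and SESA1 and the oleosin gene OLEO1 had at most 0.0283 FPKM. The coding sequence of ECT2 itself held 36 and 40 events in FA-CLIP 1 and 2, against 0 and 0 in mock 1 and 2. The labels give wild type for the mock plants, which carry their own ECT2 gene.

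The strongest CDS-labelled sites of genes without any mock site show what the list holds where the mock libraries list no site. Their lack of mock events follows from that choice. The sequences are RefSeq TAIR10.1, written 5′ to 3′ in DNA letters on the sense strand of the transcript. Capitals mark the DRACH consensus and the U-rich motif URUAY, which are spelled out further on.

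AT4G39200: cattctctcTGACCgtatgagg
APE1: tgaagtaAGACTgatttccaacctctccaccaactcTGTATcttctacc
AT5G37360: aatcagattctactaa
RP1: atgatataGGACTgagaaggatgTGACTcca
AT1G78140: tttataGGACT
UBC9: atctgttctttgttaacggatccAAACC
AT5G43460: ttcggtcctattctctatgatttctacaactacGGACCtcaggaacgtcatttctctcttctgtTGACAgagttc
CYP81H1: tttacttattctg
ALP: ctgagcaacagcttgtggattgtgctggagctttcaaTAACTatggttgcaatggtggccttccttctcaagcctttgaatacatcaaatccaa

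By summed events the strongest site lay in AT4G39200, a ribosomal protein S25 gene of the small ribosomal subunit, at chr4:18257946-18257967 on the plus strand. It had 82 and 30 events in FA-CLIP 1 and 2, and its midpoint was nt 202 of a 327 nt CDS. The same 22 nt also occur in a transcribed pseudogene, AT3G30740 (chr3:12368031-12368052), so events there cannot be assigned to 1 locus. The site of APE1 (chr5:15473291-15473339, minus strand), a gene for acclimation of photosynthesis to the environment, had 103 and 4 events. It is coding in 1 RefSeq transcript and intronic in another. In RP1, a ribosomal protein L3 gene, the site at chr1:16268364-16268394 had 69 and 25 events, 253 nt before the end of the stop codon. UBC9, a ubiquitin-conjugating enzyme, had 39 and 29 events at chr4:13916169-13916196 on the minus strand, and ALP, an aleurain-like protease, had 29 and 26 events at chr5:24281359-24281452.

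Short sites were harder to place. The 11 nt site of AT1G78140 (chr1:29403056-29403066, minus strand; 52 and 33 events) has 55 exact copies in the genome and lies in an intron of the RefSeq transcript despite its CDS label. The 13 nt site of the cytochrome P450 gene CYP81H1 (chr4:17558810-17558822, minus strand; 7 and 48 events) has 23 copies. AT5G37360 (chr5:14807926-14807941, minus strand; 57 and 44 events) and AT5G43460 (chr5:17461157-17461231; 43 and 19 events) each have 1 copy. The remaining site of this set of 10, in the 3-phosphoserine phosphatase gene PSP (chr1:6416535-6416576, minus strand; 32 and 18 events), is not printed because another transcript has a 3′ UTR there. DRACH stood in 7 of the 9 printed sequences, and CYP81H1 and AT5G37360 held neither motif. Over all CDS-labelled sites it stood in 41.9% in FA-CLIP 1 and 44.1% in FA-CLIP 2. The printed sites include some of 49, 75 and 94 nt, and a longer site has more places for a motif. Nothing is therefore read from this count.

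Other sites show what sets the event totals, among them sites that the mock also holds.

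TCTP: ataagcgaccatgttggTGTACcaag
AT2G01021: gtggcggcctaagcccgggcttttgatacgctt
AT3G20362: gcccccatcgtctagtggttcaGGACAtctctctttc
AT1G77030: gattgtaggttg
AT4G16155: gttcaTATATttggattgcat

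The TCTP site (chr3:5670714-5670739, minus strand) spans the start codon, with its midpoint at nt 4 of the CDS. TCTP encodes translationally controlled tumor protein, a growth regulator. This site had 314 and 245 events in FA-CLIP 1 and 2, against 4 and 17 in mock 1 and 2. Both FA-CLIP values stood above both mock values.

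The site of AT2G01021 (chr2:6647-6679, plus strand) had 4065 and 870 events in FA-CLIP 1 and 2, against 2360 and 3435 in mock 1 and 2. AT2G01021 is annotated as an uncharacterized protein with a CDS of 102 nt, and the site runs past its stop codon. It follows the rRNA genes AT2G01010 and AT2G01020 on the same strand, and the same 33 nt occur in AT3G06365, annotated as a misc_RNA (chr3:14200618-14200650). The input gave it 276196 and 692690 FPKM. The site of AT3G20362 (chr3:7104177-7104213) had 941 and 355 events in FA-CLIP 1 and 2, against 467 and 377 in mock 1 and 2. Its 37 nt are identical to a stretch of the chloroplast tRNA gene trnE. Over these bases, reads of AT3G06365 or of chloroplast trnE cannot be told apart from reads of the loci named. AT1G77030, a putative DEAD-box RNA helicase gene, carried 296 and 96 events in FA-CLIP 1 and 2, against 801 and 444 in mock 1 and 2, at a 12 nt site (chr1:28948786-28948797) with 17 genome copies that is intronic in RefSeq. AT4G16155, a dihydrolipoamide dehydrogenase gene, had 372 and 40 events at chr4:9153934-9153954 in FA-CLIP 1 and 2, against 597 and 0 in mock 1 and 2. These groups overlapped. The sequence of this site has 1 copy, but the 597 mock events lay in an 11 nt mock site within it whose sequence has 124 copies.

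Coding sequence made up a smaller part of the FA-CLIP sites than of the mock sites. Among nuclear mRNA-labelled sites (CDS, 3′ UTR, 5′ UTR and intron), CDS-labelled sites were 32.0% (95% Wilson interval 31.6 to 32.5) in FA-CLIP 1 and 22.3% (21.8 to 22.7) in FA-CLIP 2, against 50.1% (47.6 to 52.6) in mock 1 and 51.9% (49.7 to 54.2) in mock 2. The means were 27.1 ± 6.91% in FA-CLIP and 51.0 ± 1.3% in the mock (SD, n = 2 each). The groups did not overlap, and the 2 FA-CLIP libraries stood further apart than the 2 mock libraries. By events the shares were 14.6% and 7.34% in FA-CLIP 1 and 2, against 39.1% and 45.2% in mock 1 and 2. An exact two-sided permutation test over libraries gave p = 0.33 for both measures, the smallest value that 2 against 2 libraries allow, so no difference between these groups can pass a 0.05 threshold. Intervals here and below cover counting error only, since conversion events are not independent molecules.

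A few loci carried much of the mock's coding signal. AT2G01021 alone took 10.01% and 5.69% of the CDS-labelled events in FA-CLIP 1 and 2, against 39.5% and 60.7% in mock 1 and 2. Without it, an exclusion added after the data were seen, the CDS share of events was 13.3% and 6.95% in FA-CLIP 1 and 2, against 27.9% and 24.4% in mock 1 and 2. AT5G45720, an AAA-type ATPase gene, held no CDS-labelled event but 6435 and 1690 3′ UTR-labelled events in FA-CLIP 1 and 2, against 6283 and 6237 in mock 1 and 2. Without both genes the CDS share of events was 13.5% and 6.97% in FA-CLIP 1 and 2, against 36.8% and 31.9% in mock 1 and 2.

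The size of the difference in events also turned on sites with several genome copies. Without CDS-labelled sites that occur more than once in the genome, and with all sites of other labels kept, the CDS share of events was 11.75% and 6.33% in FA-CLIP 1 and 2, against 11.79% and 15.8% in mock 1 and 2. FA-CLIP 1 and mock 1 then stood within 0.1 percentage points of each other. With repeated sites of every mRNA label left out, it was 12.6% and 6.62% in FA-CLIP 1 and 2, against 32.8% and 35.7% in mock 1 and 2. In genes with a CDS-labelled site in both groups it was 22.4% and 11.8% in FA-CLIP 1 and 2, against 78.1% and 80.1% in mock 1 and 2. A gene enters that set only with a CDS-labelled site in each group, which by itself raises the CDS share. AT5G45720, with no CDS-labelled event, drops out, and AT2G01021 stays in. The difference of means, -31.1 percentage points over all sites, was thus -4.73, -24.6 and -62.0 under these 3 restrictions, which were added after the data were seen. The share of sites moved less, at -18.7, -24.7 and -13.4 percentage points, against -23.9 over all sites.

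In numbers, the FA-CLIP libraries listed 12.3 times as many CDS-labelled sites as the mock libraries on average. After thinning of every library to 402932 nuclear events, the expected numbers were 6461 and 4610 sites in FA-CLIP 1 and 2, against 768 and 766 in mock 1 and 2, a ratio of 7.22.

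**Figure D1:**
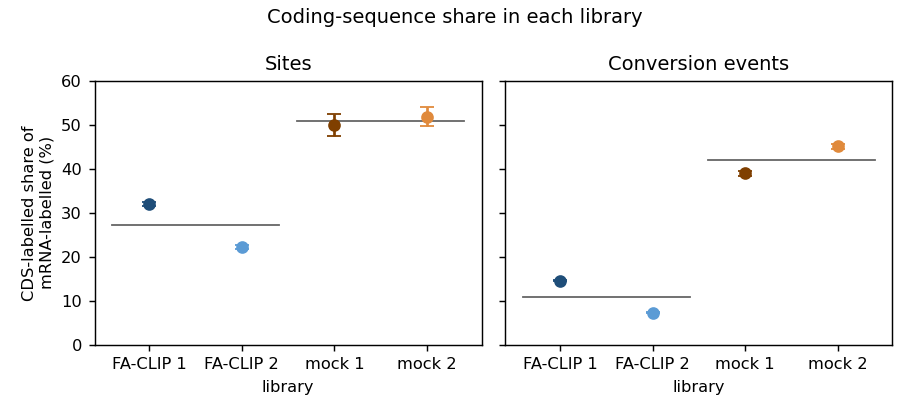
CDS-labelled share of mRNA-labelled sites (left) and of their conversion events (right), in percent, for each library. Points are libraries with 95% Wilson intervals and grey lines are group means. Both FA-CLIP points lie below both mock points in each panel, at 32.0% and 22.3% against 50.1% and 51.9% for sites.

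CDS-labelled sites were weak. Their median was 3 events in each of the 4 libraries, and 41.0% and 45.3% of them had the minimum of 2 events in FA-CLIP 1 and 2, against 43.4% and 41.2% in mock 1 and 2. In the same FA-CLIP libraries, 3′ UTR-labelled sites had a median of 5 events in both, and 20.9% and 20.4% had 2 events. Sites of 20 or more events were 2.88% and 1.94% of the CDS-labelled sites in FA-CLIP 1 and 2 (363 and 169 sites), against 4.69% and 3.51% in mock 1 and 2 (36 and 34 sites). Among 3′ UTR-labelled FA-CLIP sites such strong sites were 15.3% and 16.8%. The mean of CDS-labelled sites was 5.71 and 4.63 events in FA-CLIP 1 and 2, against 15.6 and 17.1 in mock 1 and 2, while the medians were equal. The higher mock means thus came with few heavy sites, AT2G01021 first among them.

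The FA-CLIP libraries shared a smaller part of their CDS-labelled sites than of all their mRNA-labelled sites. By an overlap of at least 1 nt on the same strand, 36.8% (35.9 to 37.6) of the FA-CLIP 1 sites met a CDS-labelled site of FA-CLIP 2, and 52.4% (51.3 to 53.4) of the FA-CLIP 2 sites met one of FA-CLIP 1. Over all mRNA-labelled sites, met by a site of any mRNA label, the same shares were 64.6% and 66.6%. They were 80.1% and 70.2% for 3′ UTR-labelled sites. Between the mock libraries, 46.0% of the CDS-labelled sites of mock 1 met one of mock 2, and 37.9% the other way. With an overlap of 50% of both sites required, the FA-CLIP shares were 20.6% and 29.9% for CDS and 44.4% and 37.6% for 3′ UTR.

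Overlap went with the number of events. Of FA-CLIP 1 CDS-labelled sites with 2 events, 20.01% met a site in FA-CLIP 2, against 59.0% of its 3′ UTR-labelled sites with 2 events. At 20 or more events the shares were 89.5% for CDS and 96.8% for 3′ UTR. In FA-CLIP 2 the share for CDS was 36.0% at 2 events and 89.3% at 20 or more, and the 3′ UTR values were 41.0% and 96.5%. In FA-CLIP 2 the CDS share lay within 5 percentage points of the 3′ UTR share at each event count up to 19, while in FA-CLIP 1 it lay below the 3′ UTR share at every event count. FA-CLIP 1 listed more CDS-labelled and fewer 3′ UTR-labelled sites than FA-CLIP 2 (24549 against 28979), and the part of these numbers in the overlap was not tested.

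**Figure D2:**
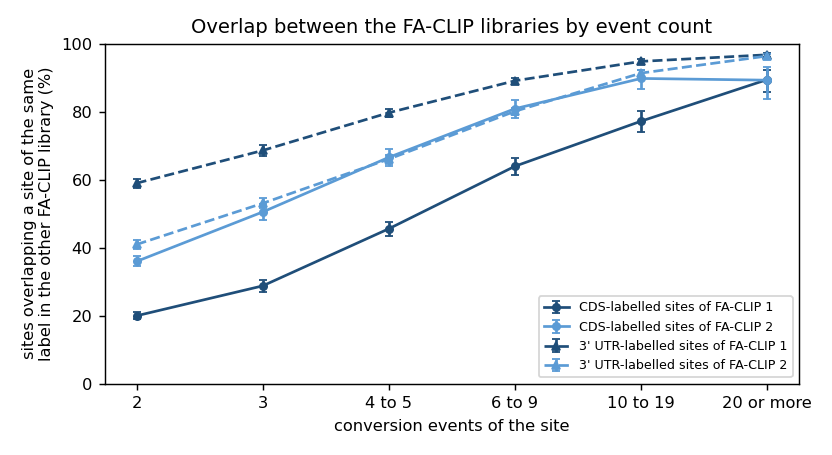
Share of FA-CLIP sites that overlap a site of the same label in the other FA-CLIP library (%, vertical axis), by the site's conversion events (horizontal axis), with 95% Wilson intervals. Solid lines are CDS-labelled and dashed lines 3′ UTR-labelled sites. Overlap is 20.01% and 36.0% for CDS-labelled sites of 2 events and 89.5% and 89.3% for those of 20 or more.

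Joining overlapping sites of both FA-CLIP libraries gave 4070 reproducible CDS sites in 1803 genes, with a median width of 45 nt. Of these genes, 959 held 1 such site, 326 held 2 and 190 held at least 5, up to 18 in 1 gene. A mock site overlapped 17.7% (16.5 to 18.9) of the reproducible CDS sites, against 7.87% of the reproducible sites of all mRNA labels and 4.61% of those labelled 3′ UTR. Conversely, 76.8% of the CDS-labelled sites of mock 1 and 73.8% of those of mock 2 met a CDS-labelled site of FA-CLIP 1. In FA-CLIP 2 they met one in 63.2% and 61.9% of cases. By this 1 nt overlap, most CDS-labelled mock sites thus met a site of the longer FA-CLIP lists. With an overlap of 50% of both sites required, 45.8% of the mock 1 and 41.7% of the mock 2 sites met one of FA-CLIP 1. For FA-CLIP 2 these shares were 35.9% and 35.3%. The overlap that list length alone would give was not computed. Of the reproducible CDS sites, 49.1% lay in a gene with a mock site.

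Coding sites came almost always with 3′ UTR sites. Of the 1803 genes, 1727 also had a 3′ UTR-labelled FA-CLIP site and 76 had none. Many of them were abundant: 1161 of the 1789 that are protein-coding with input above 0 lay in the highest 10% of input. Of all genes in that 10%, 85.2% held a reproducible 3′ UTR site, a stricter criterion. The part of abundance in the joint occurrence was not tested. In the other direction, 1658 of the 8160 genes with a reproducible 3′ UTR site had a reproducible CDS site (20.3%). Among genes with at least 50 mRNA-labelled events, the CDS held a median of 9.94% of a gene's events in FA-CLIP 1 (1855 genes) and 4.92% in FA-CLIP 2 (2091 genes). It held none in 12.8% and 20.6% of these genes, and over 50% in 63 and 14 genes. Across the 1659 genes that reached 50 events in both libraries, the CDS share had a Spearman correlation of 0.728 between FA-CLIP 1 and 2, a description across genes, which are not independent replicates.

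FA-CLIP CDS-labelled sites leaned towards the stop codon and mock sites did not. The midpoint lay in the RefSeq CDS of the listed transcript for 97.9% and 97.5% of the sites in FA-CLIP 1 and 2, against 96.5% and 96.1% in mock 1 and 2, and only such sites were placed. The median position along the CDS, with the start codon at 0% and the stop codon at 100%, was 56.4% and 61.7% in FA-CLIP 1 and 2, against 45.6% and 44.8% in mock 1 and 2. The last 10% of the CDS held 15.8% (15.1 to 16.4) of the sites in FA-CLIP 1 and 18.4% (17.6 to 19.2) in FA-CLIP 2, against 9.21% (7.33 to 11.5) in mock 1 and 9.36% (7.66 to 11.4) in mock 2. The first 10% held 10.4% and 8.40% in FA-CLIP 1 and 2, against 11.7% and 11.6% in mock 1 and 2. In each of these measures the groups did not overlap (exact permutation p = 0.33, the smallest possible).

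Measured in nucleotides, 17.6% and 21.9% of the FA-CLIP 1 and 2 sites lay within 100 nt of the end of the stop codon, against 12.6% and 13.0% of the mock 1 and 2 sites. An even spread over the same coding sequences would put 12.1% and 13.2% there in FA-CLIP 1 and 2, against 13.8% and 13.7% in mock 1 and 2. The FA-CLIP lists thus exceeded their even spread near the stop codon, and the mock lists did not. The lean was smaller where both groups list sites in the same genes. In the 560 genes with a CDS-labelled site in FA-CLIP and in the mock, a restriction added after the data were seen, the last 10% held 10.9% and 11.8% of the sites in FA-CLIP 1 and 2, against 9.37% and 8.97% in mock 1 and 2. The difference of means was 2.15 percentage points there and 7.78 over all genes. With sites placed and labelled by the RefSeq transcript with the longest CDS of each gene it was 11.8. By events the groups did not separate. Without AT2G01021 and AT5G45720, the last 10% held 14.2% and 17.0% of the CDS events in FA-CLIP 1 and 2, against 16.6% and 14.8% in mock 1 and 2.

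**Figure D3:**
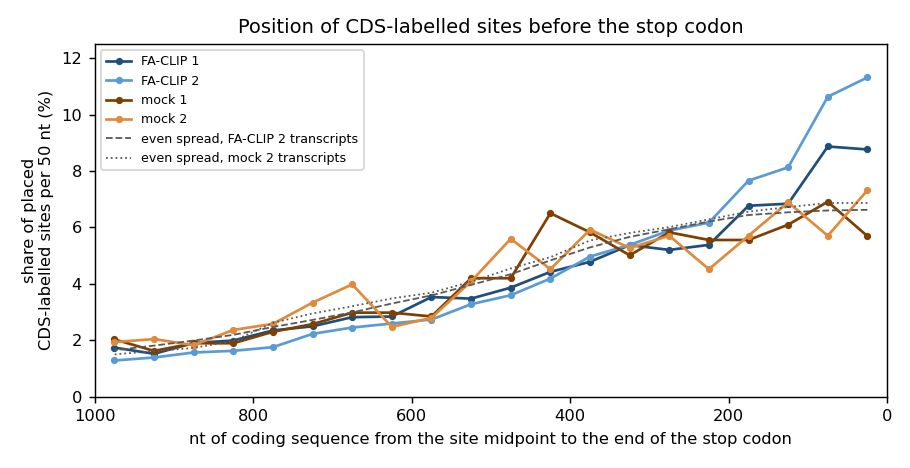
Share of placed CDS-labelled sites per 50 nt of coding sequence (%, vertical axis) by distance of the site's midpoint to the end of the stop codon (nt, horizontal axis), for each library. Grey lines are the shares that an even spread over the same coding sequences would give, dashed for FA-CLIP 2 and dotted for mock 2. The FA-CLIP lines lie above them in the last 200 nt, at 8.76% and 11.3% in the last 50 nt, where mock 1 has 5.69% and mock 2 has 7.32%.

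Near the stop codon the overlap between libraries differed from that elsewhere in FA-CLIP 1 but little in FA-CLIP 2. Within 200 nt of the end of the stop codon, 42.4% of the FA-CLIP 1 sites and 51.5% of the FA-CLIP 2 sites met a CDS-labelled site of the other library. Further away the shares were 34.2% and 53.1%. Among the reproducible sites, 15.7% (14.6 to 16.9) lay in the last 10% and 10.1% (9.24 to 11.1) in the first. Of the FA-CLIP sites that overlapped a mock site, 9.05% in FA-CLIP 1 and 10.5% in FA-CLIP 2 lay in the last 10% of the CDS. The shares were 16.4% and 19.3% for sites that overlapped none. Sites chosen by such an overlap lie where mock sites lie, so their likeness to mock sites follows from the choice.

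Of 7 motifs searched on the sense strand, DRACH (A, G or U, then A or G, then AC, then A, C or U) was the most frequent. It stood in 41.9% (41.1 to 42.8) of the CDS-labelled sites of FA-CLIP 1 and in 44.1% (43.0 to 45.1) of those of FA-CLIP 2. In the mock it stood in 38.7% (35.3 to 42.2) of the sites of mock 1 and in 39.1% (36.1 to 42.2) of those of mock 2. Sites were slightly longer in FA-CLIP, with a median width of 27 and 28 nt in FA-CLIP 1 and 2, against 25 and 25 nt in mock 1 and 2, so the share was set beside all windows of the same lengths in the same coding sequences. These held DRACH in 36.9% and 38.6% of cases for FA-CLIP 1 and 2, against 33.2% and 33.7% for mock 1 and 2. The sites of each of the 4 libraries exceeded their windows by about the same amount, and the difference between FA-CLIP and mock was as large in the windows (4.29 percentage points) as in the sites (4.11). The difference in the sites was 8.06 among sites above the library median of events, 2.09 among sites with 1 genome copy and 2.20 among sites of 16 nt or more.

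FA-CLIP sites seen in 1 library only held DRACH in 40.7% (windows 34.9%) in FA-CLIP 1 and in 43.4% (windows 36.0%) in FA-CLIP 2. Sites met in the other library held it in 43.9% (windows 40.2%) and 44.7% (windows 40.9%). The excess over windows was not larger among the reproducible sites. RRACH, the part of DRACH that starts with A or G, stood in 32.9% and 34.2% of the sites in FA-CLIP 1 and 2, against 29.9% and 29.7% in mock 1 and 2. Its windows held it in 29.0% and 30.2% for FA-CLIP 1 and 2, against 25% and 25.7% for mock 1 and 2. GGAU stood in 12.3% and 12.03% of FA-CLIP 1 and 2 sites, against 11.2% and 10.7% in mock 1 and 2. Its windows held it in 12.7% and 13.1% for FA-CLIP 1 and 2, against 11.1% and 11.2% for mock 1 and 2. Sites thus held GGAU less often than their windows in FA-CLIP 1 and 2 and in mock 2, and about as often in mock 1.

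The U-rich motif URUAY (U, then A or G, then UA, then C or U) was rare in coding sites. It stood in 6.18% (5.77 to 6.61) and 6.79% (6.28 to 7.34) of the FA-CLIP 1 and 2 sites, against 4.43% (3.19 to 6.12) and 2.99% (2.09 to 4.27) of the mock 1 and 2 sites. Windows held it in 5.41% and 5.44% for FA-CLIP 1 and 2, against 3.77% and 3.89% for mock 1 and 2. In the same FA-CLIP libraries, 20.4% and 21.6% of the 3′ UTR-labelled sites held URUAY, while DRACH was about as frequent there (39.6% and 40.7%) as in coding sites. UGUAY, the part of URUAY with G in the second place, stood in 3.80% and 4.48% of FA-CLIP 1 and 2 coding sites, against 3.13% and 2.17% in mock 1 and 2. Its windows held it in 3.31% and 3.46% for FA-CLIP 1 and 2, against 2.58% and 2.66% for mock 1 and 2. UGUAA, which shares its first 4 letters with UGUAY, stood in 1.67% and 1.85% of FA-CLIP 1 and 2 sites, against 1.95% and 1.14% in mock 1 and 2, and these groups overlapped. Its windows held it in 1.22% and 1.21% for FA-CLIP 1 and 2, against 0.874% and 0.831% for mock 1 and 2. A run of 5 U stood in 1.75% and 1.68% of coding sites in FA-CLIP 1 and 2, against 1.95% and 2.17% in mock 1 and 2, with windows at 1.44% and 1.4% for FA-CLIP 1 and 2, against 1.46% and 1.32% for mock 1 and 2. In the 3′ UTR-labelled FA-CLIP sites it was 17.1% and 17.0%.

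Base composition set coding sites apart from their surroundings in both groups alike. U made up 29.8% and 29.9% of the bases of CDS-labelled sites in FA-CLIP 1 and 2, against 30.3% and 29.7% in mock 1 and 2. The coding sequences around them held 26.6% U for both FA-CLIP libraries and 26.4% for both mock libraries. In 3′ UTR-labelled FA-CLIP sites U was 41.1% and 40.7%. A G closed 34.8% and 34.4% of the coding sites in FA-CLIP 1 and 2, against 33.9% and 35.8% in mock 1 and 2. A G stood just before the first base in 31.3% and 28.4% in FA-CLIP 1 and 2, against 31.3% and 31.2% in mock 1 and 2. Both places are those that RNase T1 leaves, and G made up about as much of them in the mock as in FA-CLIP.

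Mock sites were shorter and more often repeated in the genome. Sites under 16 nt were 7.24% and 6.06% of the CDS-labelled sites in FA-CLIP 1 and 2, against 17.4% and 14.1% in mock 1 and 2. The sequence of a site occurred more than once in the genome for 9.82% and 9.33% of the sites in FA-CLIP 1 and 2, against 27.1% and 22.4% in mock 1 and 2. Among sites of 16 nt or more these shares were 4.59% and 4.67% in FA-CLIP 1 and 2, against 15.8% and 12.6% in mock 1 and 2. How reads with several genomic matches were placed is not given in the sources used here, and the part of such reads in the CDS signal was not tested.

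The genes with the most events in reproducible CDS sites were mostly abundant genes of photosynthesis. Event totals differ between libraries, so the values below are CDS-labelled events per 1000000 nuclear events. Of the 15 leading genes, 9 had both FA-CLIP values above both mock values and 2 had both below. Over all 637 nuclear protein-coding genes with a CDS-labelled mock site, both FA-CLIP values lay above both mock values in 48%, and over the 5569 genes with such a site in any library in 43.9%. The 15 were ranked by FA-CLIP events, which are part of this comparison, so nothing is read from their share.

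TCTP led among the genes with both FA-CLIP values above both mock values. It had 834 and 801 such scaled events in FA-CLIP 1 and 2, against 52.1 and 73.5 in mock 1 and 2, a mean of 818 ± 23.1 in FA-CLIP and 62.8 ± 15.1 in the mock (SD, n = 2 each), or 13.0 times as much. Its CDS held 9.57% and 9.31% of its mRNA-labelled events in FA-CLIP 1 and 2, and the rest lay mostly in the 3′ UTR (6483 and 5990 events). ARFA1E, a small GTPase of vesicle traffic, had 315 and 168 scaled events in FA-CLIP 1 and 2, against 14.9 and 22.6 in mock 1 and 2. GGT1, the glutamate:glyoxylate aminotransferase of photorespiration, had 394 and 331 in FA-CLIP 1 and 2, against 39.7 and 47.1 in mock 1 and 2. Its 17 reproducible sites were the most among the 15 genes. In ARFA1E and GGT1 the coding sites were a small part of the gene's events, at 3.70% and 3.32% for ARFA1E and 5.92% and 6.72% for GGT1 in FA-CLIP 1 and 2.

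GAPA, FBA2, RCA and RBCS1A, which act in carbon fixation, also had both FA-CLIP values above both mock values. GAPA, a subunit of chloroplast glyceraldehyde-3-phosphate dehydrogenase, had 564 and 502 scaled events in FA-CLIP 1 and 2, against 96.8 and 90.4 in mock 1 and 2. FBA2, a chloroplast fructose-bisphosphate aldolase, had 393 and 227 in FA-CLIP 1 and 2, against 84.4 and 105 in mock 1 and 2. RCA, which activates Rubisco, had 439 and 270 in FA-CLIP 1 and 2, against 179 and 156 in mock 1 and 2. RBCS1A had 361 and 310 in FA-CLIP 1 and 2, against 169 and 185 in mock 1 and 2. Their ratios of means were 5.69, 3.26, 2.11 and 1.90, in the order named, and the mock held each of them.

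Of the 15 genes, 4 encode antenna proteins or a photosystem subunit. LHCB4.1, a minor antenna protein of photosystem II, had 405 and 229 scaled events in FA-CLIP 1 and 2, against 81.9 and 56.5 in mock 1 and 2. PSBW, a small photosystem II subunit, had 410 and 82.1 in FA-CLIP 1 and 2, against 29.8 and 45.2 in mock 1 and 2. LHCA4, an antenna protein of photosystem I, had 417 and 151 in FA-CLIP 1 and 2, against 181 and 141 in mock 1 and 2. LHB1B2, a main antenna protein of photosystem II, had 440 and 100 in FA-CLIP 1 and 2, against 201 and 190 in mock 1 and 2. For LHCA4 and LHB1B2 the FA-CLIP 2 value lay below a mock value, so the groups overlapped.

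**Figure D4:**
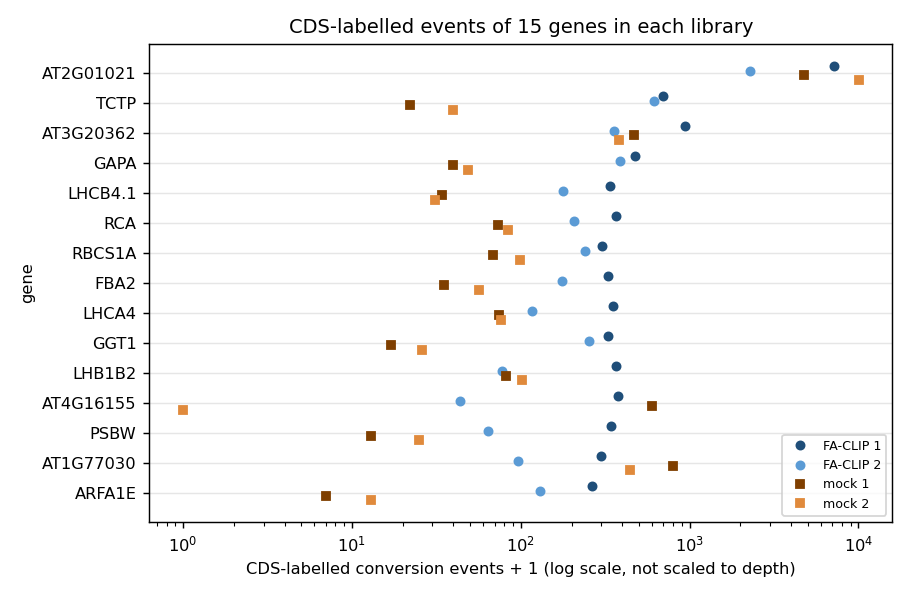
CDS-labelled conversion events plus 1 (log scale, not scaled to library totals) of the 15 nuclear genes that lead in events of reproducible CDS sites. Circles are FA-CLIP and squares mock libraries. TCTP, GGT1 and ARFA1E show the widest gaps, while for AT2G01021, AT3G20362, AT4G16155 and LHB1B2 circles and squares interleave and for AT1G77030 both squares lie above both circles.

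Among the 76 genes with a reproducible CDS site and no 3′ UTR-labelled FA-CLIP site, the 10 with the most events included AT2G01021 and AT3G20362. AT1G72645, an uncharacterized protein, had 325 and 104 scaled events in FA-CLIP 1 and 2, against 444 and 544 in mock 1 and 2. AT2G39850, a subtilisin-like endopeptidase, had 71.7 and 24.8 in FA-CLIP 1 and 2, against 1400 and 379 in mock 1 and 2. Its mock 1 events lay in an 11 nt site with 92 copies in the genome. AT1G49800, uncharacterized and listed at 0 in both input libraries, had 21.5 and 16.9 in FA-CLIP 1 and 2, against 59.6 and 20.7 in mock 1 and 2. In AT1G72645 and AT2G39850 both mock values lay above both FA-CLIP values, and in AT1G49800 the groups overlapped. AT1G73885, an AT-rich interactive domain protein, had 49.0 and 103 in FA-CLIP 1 and 2, against 0 and 7.54 in mock 1 and 2. AT1G61790, annotated to the oligosaccharyltransferase complex, had 40.6 and 19.5 in FA-CLIP 1 and 2 and no event in the mock, and the peptidase M50 family gene AT1G05140 had 32.3 and 20.9 and none in the mock. CYP81H1 had 8.36 and 62.6 and none in the mock, and ARA12, a subtilase, had 38.2 and 14.3 in FA-CLIP 1 and 2, against 4.96 and 13.2 in mock 1 and 2.

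Genes with coding sites were abundant genes. Of nuclear protein-coding genes with input above 0, 7.51% held a reproducible CDS site (1789 of 23816). The share was 0.294% in the lowest 10% of genes by mean input, 15.1% in the 10% next to the highest and 48.8% in the highest 10%. For reproducible 3′ UTR sites it was 76.7% in the 10% next to the highest and 85.2% in the highest 10%. A CDS-labelled site stood in 74.4% and 65.9% of the genes of the highest 10% in FA-CLIP 1 and 2, against 10.8% and 13.8% in mock 1 and 2. Mock sites too were most frequent there, and stood in 1.22% and 1.39% of the genes in the 10% next to the highest. Below that the mock shares showed no steady rise. From the lowest step to step 8 of 10 they went from 0.546% to 0.588% in mock 1 and from 0.378% to 0.546% in mock 2. Over the same steps FA-CLIP 1 went from 0.840% to 31.4% and FA-CLIP 2 from 0.630% to 18.4%. Input and precipitate libraries were made with different kits, and fewer cells of a type and less RNA per cell cannot be told apart in these whole seedlings.

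**Figure D5:**
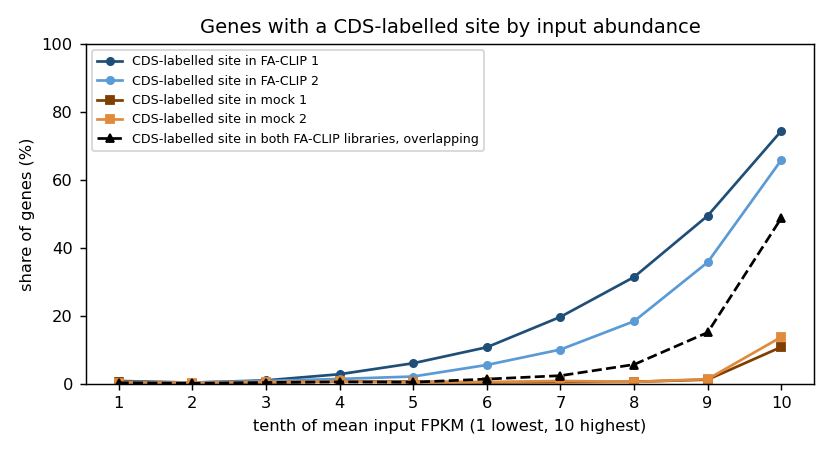
Share of nuclear protein-coding genes with a CDS-labelled site (%, vertical axis) by 10% step of mean input FPKM, from lowest to highest (horizontal axis), for each library and for sites that overlap between both FA-CLIP libraries. In the highest 10% the shares are 74.4% and 65.9% for FA-CLIP, 10.8% and 13.8% for the mock and 48.8% for overlapping FA-CLIP sites.

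Gene lists of plastid function were covered nearly whole, and nearly all of their members lie in the highest 10% of input, where 48.8% of all genes held a reproducible CDS site. Such a site stood in 13 of 13 photosystem I subunits, 10 of 11 photosystem II subunits, 17 of 19 light-harvesting antenna genes and 12 of 14 Calvin cycle enzymes. It also stood in 12 of 14 photorespiration enzymes and in all 5 Rubisco small subunit and activase genes. The mock had a CDS-labelled site, in either library, in 13 of these photosystem I subunits, 10 photosystem II subunits, 17 antenna genes, 11 Calvin cycle and 10 photorespiration enzymes. Over all genes of the highest 10% of input, 10.8% held one in mock 1 and 13.8% in mock 2. Antenna genes had the highest coding part of the 13 lists in FA-CLIP 1, with a median of 51.0% and 23.3% of a gene's mRNA-labelled events in FA-CLIP 1 and 2. Members differed widely, with 92.1% and 84.6% for LHB1B1 and 15.9% and 11.8% for LHCB5 in FA-CLIP 1 and 2. The mock held much of the coding signal of antenna genes too. Of the 17 antenna genes with a CDS-labelled mock site, 8 had both FA-CLIP values above both mock values in scaled events (47.1%). Over all genes with such a mock site the share was 48.0%. In the remaining antenna genes of the 17 the groups overlapped. Among the 4 Rubisco small subunit genes, near-identical copies between which reads may be split, the CDS held 64.9% and 41.5% of the events of RBCS2B in FA-CLIP 1 and 2 and 46.3% and 43.5% of those of RBCS1B. It held 10.4% and 5.65% of those of RBCS3B and 14.6% and 10.9% of those of RBCS1A.

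Other lists were covered in part, and fewer of their members lie in the highest 10% of input, where 48.8% of all genes held a reproducible CDS site, against 7.51% over all input levels. Of 31 plasma membrane and vacuolar proton ATPase genes with input, 15 held a reproducible CDS site and 2 had a CDS-labelled mock site. The corresponding counts were 9 and 3 of 13 genes for 14-3-3 proteins, 11 and 4 of 24 for actins and tubulins, and 7 and 6 of 21 for aquaporins. Mock counts are of a site in either mock library. Over all genes of the highest 10% of input, mock 1 and 2 listed a CDS-labelled site in 10.8% and 13.8%. The highest 10% of input held 17 of the proton ATPase genes, 9 of the 14-3-3 genes, 14 of the actin and tubulin genes and 14 of the aquaporin genes. HSP70 and HSP90 chaperones had a reproducible site in 4 of 11 genes, 8 of which lie in the highest 10%. These were HSC70-1, with 156 and 113 CDS events in FA-CLIP 1 and 2, against 15 and 31 in mock 1 and 2, and CR88, HSP70 and cpHsc70-2, with no CDS event in either mock library. Of 12 YTH-domain reader genes, 1 of them in the highest 10% of input, ECT2 alone held one, with 23.5 ± 0.707 events in its 4 reproducible sites (SD, n = 2). Of 17 trichome genes, with 0 in the highest 10%, none held a reproducible CDS site and 7 held a reproducible 3′ UTR site. Over all genes the share with a reproducible 3′ UTR site rose from 0.126% in the lowest 10% of input to 85.2% in the highest. Nothing is therefore read from the count of 7.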

How the data were processed

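The FA-CLIP and mock files list sites by transcript with the number of conversion events per site, a whole-number count, per the file headers. The deposited input files give 1 value per gene in FPKM, a unit inferred from their layout and values, and their read depth is unknown. Libraries of precipitated RNA were made with a small RNA kit and input libraries with another RNA kit, per the labels' protocols. The submitters' processing notes name cutadapt, Bowtie and TAIR10, without versions, and a site caller or counter is not given in the sources used here.

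Each site entered once, under the label of its first transcript. Site coordinates were taken as 1-based and read from RefSeq TAIR10.1, whose nuclear chromosomes the TAIR10 coordinates matched: 97.9% of the FA-CLIP 1 midpoints lay in the RefSeq CDS of the same transcript. Overlaps were on the same strand, by 1 nt or more. Motifs were searched on the sense strand and set beside all windows of the same length in the same CDS. The library was the replicate. Each measure was compared by an exact two-sided permutation test, 91 in all, none of which can go below p = 0.33, so no adjustment was made. Shares carry 95% Wilson intervals.

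Named were the 15 leading nuclear protein-coding genes by events in reproducible CDS sites, the 10 with the most among genes without a 3′ UTR-labelled FA-CLIP site, the 10 strongest single sites of genes without a mock site, members of lists with 5 or fewer genes with a site, and loci the alternatives turn on. Members, lists and loci were chosen with earlier results of these data known. Values were computed in Python 3.11.15 with numpy 2.4.6 and scipy 1.17.1 and drawn with matplotlib 3.10.9. The overlap, merging and genome copy steps were tested on simulated data, where 2000 of 2000 planted sites got the right overlap, and 12625 of 12625 FA-CLIP 1 sites got the same answer as bedtools 2.31.1. The alternatives were a stricter site threshold and overlap, other transcript models, longer windows, thinning, leaving out each library or 2 loci, and pairing by replicate number.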

Additional observations from a re-analysis of the deposited data

How the results depend on the processing

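The lower CDS share of sites and events in FA-CLIP, the median position further towards the stop codon, and the higher shares of DRACH, RRACH, URUAY, UGUAY and GGAU kept their direction under every alternative run for them, but not their size. Windows of the same lengths in the same coding sequences also differed, by 4.29 percentage points for DRACH, 4.25 for RRACH and 1.74 for GGAU. Each was larger than the main difference of the sites. For URUAY and UGUAY the windows differed by 1.59 and 0.767, less than the sites. With sites extended by 25 nt on each side the GGAU groups overlapped. The CDS share of events differed by -31.1 percentage points over all sites. It differed by -4.73 with repeated sites left out of the CDS label only, and by -24.6 with them left out of every mRNA label. Without AT2G01021 alone it differed by -16.0. In genes with CDS-labelled sites in both groups it differed by -62.0, a value that this choice of genes helps to set. The last 10% of the CDS differed by 7.78, and by 2.15 in the shared genes. RRACH differed by 3.71, by 8.66 above the median of events, by 1.51 at 16 nt or more and by 1.44 in the shared genes. Over all alternatives the difference ranged from 1.31 to 5.12 for URUAY (main value 2.78), from 0.962 to 3.17 for UGUAY (1.496), from 0.621 to 1.82 for GGAU (1.23) and from 6.37 to 17.7 for the median position (13.8), the lowest in the shared genes except for GGAU (sites of 16 nt or more). The FA-CLIP minus mock difference for UGUAA (main value 0.217 percentage points) turned to -0.192 without mock replicate 2 (range over left-out libraries -0.192 to 0.626), to -0.109 among sites above the library median of events and to -0.230 in genes with CDS-labelled sites in both groups. That for 5 U (main value -0.346) turned to 0.241 among CDS sites with 1 genome copy. The cause was not tested.

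The ratio of site numbers, 12.3, was 7.22 after thinning and 3.62 in the shared genes. The FA-CLIP 1 overlap of 36.8% was 38.8% among sites above the median of events, 38.1% by the RefSeq transcript with the longest CDS, 20.6% with 50% overlap and 58.6% in the shared genes. The FA-CLIP 2 overlap of 52.4% was 61.2% among sites above the median, 29.9% with 50% overlap, 51.3% for sites with 1 copy and 72.5% in the shared genes. The share of reproducible sites that overlap a mock site, 17.7%, was 16.4% above the median of events, 11.1% with 50% overlap, 16.5% for sites of 16 nt or more, 15.5% for sites with 1 copy and 44.1% in the shared genes. Left-out mock libraries gave 11.4 to 13.1%, since fewer mock sites remain to be met. The shared genes hold a CDS-labelled mock site by choice, which by itself raises the share that meets a mock site. The same choice leaves out genes with FA-CLIP sites alone, which lowers the ratio of site numbers.

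The restrictions to sites of 16 nt or more, to sites with 1 copy and to shared genes, and the exclusion of AT2G01021 alone, were chosen after seeing the data. No deposited site mixed CDS with another label among its transcripts, so counting any listed transcript changed no value. The replicate numbers are not stated to pair libraries, and across 200 genes the replicate 1 over 2 log2 ratios of FA-CLIP and mock had a correlation of -0.18. With the replicate block the differences are the same, such as -23.9 percentage points for the CDS share of sites, with exact paired p = 0.5, the smallest that 2 pairs allow. With 2 libraries per group the spread itself is poorly known, and weak sites of 2 or 3 events limit what the overlaps can show.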
